A study of Mus musculus with 6 samples.

Results

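Chemokines are small secreted proteins that steer the migration of leukocytes, and their receptors are G protein-coupled receptors on the cells that respond. They are named by the spacing of their first cysteines (CC, CXC, CX3C and XC). In inflamed colon, fibroblasts, pericytes, epithelial cells and leukocytes all make chemokines, and the atypical receptors (Ackr genes) bind chemokines without G protein signaling and can remove them. The family was taken here as the protein-coding genes whose symbols follow the chemokine, chemokine receptor or atypical receptor naming. It had 59 genes among 49548 in the deposited table, of which 37 were ligands, 18 were receptors and 4 were atypical receptors. A further matching name, Cxcl11, is listed there as a polymorphic pseudogene and was left out, with 0, 2 and 9 normalized counts in Col6a1+ CAFs and 6, 0 and 4 in Col6a1− CAFs.

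The question was how these genes differ between cancer-associated fibroblast (CAF) subsets of colonic adenomas. Tumors had been induced with the AOM/DSS model, the carcinogen azoxymethane followed by dextran sulfate sodium colitis, in mice of the C57/BL6 strain that carried both Col6a1-cre and Rosa26-mTmG. Cells positive for CD45, EpCAM, CD31 or Ter119 were excluded in the sort. The 3 Col6a1+ CAF samples were GFP+, because Cre activity replaces Tomato with GFP in this reporter, and the 3 Col6a1− CAF samples were Tomato+, without Cre recombination. All 6 samples shared genotype, strain and treatment, and no untreated samples were analysed here. Each sample was pooled from tumors of several mice, so that differences between single mice cannot be seen, and the mice were young adults when they received azoxymethane. Col6a1Cre is active in PDGFRa-high fibroblasts and in perivascular cells, so that Col6a1+ CAFs are a mixture of both, whereas Col6a1− CAFs hold the remaining lineage-negative cells. The paper speaks of 3 pooled samples in all and sorted both fractions from adenomas. A GFP+ and a Tomato+ sample may thus share a pool, which the labels do not state. The main fit takes the 6 samples as independent, and an alternative reads the replicate numbers as pairs. The p-values below measure the spread between these pooled samples.

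Levels are normalized counts, read counts that the authors divided by DESeq size factors, from QuantSeq libraries that capture the 3′ ends of transcripts. The libraries summed to between 3039152 and 3425249 normalized counts, and between 14530 (Col6a1+ replicate 1) and 20511 genes had at least 1 count. Col6a1 itself had 861, 1287 and 1941 normalized counts in Col6a1+ CAFs and 182, 321 and 102 in Col6a1− CAFs, without overlap. Of the marker lists, the 8 pan-fibroblast markers summed to between 39036 and 43497 in Col6a1+ CAFs and between 6978 and 14233 in Col6a1− CAFs, and the 8 mural markers to between 51602 and 104287 against 1521 and 3960. The 12 epithelial markers summed to between 5613 and 5940 in Col6a1+ CAFs and between 19162 and 31823 in Col6a1− CAFs despite the sort against EpCAM, and 9 of them were called lower in Col6a1+ CAFs. The 12 endothelial markers summed to between 383 and 651 against 1890 and 3295, but Prox1 made up most of the Col6a1− sums, and without it they overlapped (368, 274 and 558 against 410, 790 and 651). On that list Prox1 was called lower and Tie1 higher in Col6a1+ CAFs (log2 differences -4.95 and 4.14). The 22 immune markers, of which Itgam is listed on 2 rows, summed to between 273 and 544 against 930 and 2075, with Ptprc, which encodes CD45, at 0, 2 and 0 against 7, 8 and 3, and Ms4a1 at 0 throughout. The erythroid list ranged from 110 to 1713 against 281 to 482, and the glial list from 62 to 93 against 70 to 131.

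Of the 59 genes, 6 were at 0 in every library (Ccl1, Ccl26, Ccr3, Ccr6, Cxcr1 and Cxcr3), where a 0 allows up to 3 counts in a library. The other 53 were tested, and 10 of them never exceeded 3 normalized counts in a library. A mean of at least 10 normalized counts over the 6 libraries was reached by 29 genes, namely 23 ligands, 4 receptors and 2 atypical receptors. Fold changes are given on the log2(normalized count + 1) scale as Col6a1+ minus Col6a1− CAFs, which understates the difference of genes with few counts. A gene was called at a Benjamini-Hochberg adjusted p under 0.05 in a limma fit over all 26402 genes with at least 1 count.

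Promoter sequences are printed here for the ligands with a promoter entry among those whose levels the results below turn on. They allow neighboring and related genes to be compared by sequence. The called ligands Ccl2, Ccl7 and Ccl11 had no entry, nor did Cxcl5. The windows are the 250 bases before the RefSeq gene start in GRCm38.p6, the same assembly as mm10, and capitals mark matches to the motifs searched on both strands. These were the NF-kB consensus, the TATA box TATAAA, the AP-1 motif TGANTCA, the interferon-gamma activated site (GAS) TTCNNNGAA and the core of the interferon-stimulated response element (ISRE), GAAA repeated after a gap of 2 bases.
Cxcl1 promoter, chr5:90890995-90891244, plus strand: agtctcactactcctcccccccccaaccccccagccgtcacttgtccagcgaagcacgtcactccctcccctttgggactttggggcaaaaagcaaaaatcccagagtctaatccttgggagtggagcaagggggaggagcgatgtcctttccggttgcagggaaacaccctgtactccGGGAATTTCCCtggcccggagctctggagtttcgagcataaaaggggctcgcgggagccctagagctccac
Cxcl2 promoter, chr5:90903649-90903898, plus strand: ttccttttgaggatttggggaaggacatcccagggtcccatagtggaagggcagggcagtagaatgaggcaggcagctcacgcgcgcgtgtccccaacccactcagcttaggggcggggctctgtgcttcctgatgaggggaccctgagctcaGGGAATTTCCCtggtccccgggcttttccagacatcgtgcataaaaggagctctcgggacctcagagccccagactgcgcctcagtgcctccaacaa
Cxcl3 promoter, chr5:90785851-90786100, plus strand: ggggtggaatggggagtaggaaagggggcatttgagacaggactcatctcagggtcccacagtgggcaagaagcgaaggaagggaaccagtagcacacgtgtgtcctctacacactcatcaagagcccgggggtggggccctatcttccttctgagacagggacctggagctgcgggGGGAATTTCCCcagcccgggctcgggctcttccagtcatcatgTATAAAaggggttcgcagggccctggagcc
Cxcl9 promoter, chr5:92328080-92328329, minus strand: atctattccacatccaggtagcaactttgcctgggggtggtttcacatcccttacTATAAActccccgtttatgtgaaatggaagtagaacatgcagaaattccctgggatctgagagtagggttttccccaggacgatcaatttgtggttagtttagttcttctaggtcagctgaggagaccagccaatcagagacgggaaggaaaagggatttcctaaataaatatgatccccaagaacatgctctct
Cxcl10 promoter, chr5:92348890-92349139, minus strand: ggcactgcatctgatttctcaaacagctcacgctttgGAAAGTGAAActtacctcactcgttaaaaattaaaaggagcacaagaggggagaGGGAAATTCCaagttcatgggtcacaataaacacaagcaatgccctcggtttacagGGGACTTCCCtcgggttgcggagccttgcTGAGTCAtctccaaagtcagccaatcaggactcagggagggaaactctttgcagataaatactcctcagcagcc
Cxcl14 promoter, chr13:56296552-56296801, minus strand: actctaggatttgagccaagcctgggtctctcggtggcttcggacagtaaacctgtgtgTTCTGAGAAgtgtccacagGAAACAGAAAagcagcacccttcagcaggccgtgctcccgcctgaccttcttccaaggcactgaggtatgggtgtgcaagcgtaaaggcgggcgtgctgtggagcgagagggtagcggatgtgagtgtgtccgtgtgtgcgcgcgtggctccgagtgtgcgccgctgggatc
The promoters of Cxcl1, Cxcl2 and Cxcl3 each held the same run, GGGAATTTCCC, which matches the NF-kB consensus on both strands. It began 71 bases before the RefSeq gene start in Cxcl1, 97 bases before it in Cxcl2 and 73 bases before it in Cxcl3. Relative to the RefSeq start, the deposited gene start lay at -4 bases in Cxcl1, -28 in Cxcl2 and 2 in Cxcl3. The distances therefore depend on the annotation. Cxcl10 held 2 NF-kB matches, GGGAAATTCC and GGGACTTCCC, an AP-1 match, TGAGTCA, and an ISRE core, GAAAGTGAAA. Cxcl14 held a GAS match, TTCTGAGAA, and an ISRE core, GAAACAGAAA, while Cxcl9 held only a TATA match among these motifs, 195 bases before the start. Among the 45 family members with a promoter sequence, 9 held the NF-kB consensus (20%), against 4.46% of all 27025 promoters. The shares were 31.1% against 14.3% for TATAAA, 13.3% against 7.82% for TGANTCA, 6.67% against 8.13% for TTCNNNGAA and 6.67% against 3.46% for the ISRE core. A match describes letters in the window and was not tested as a binding site.

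Of the ligands, 6 were higher in Col6a1+ CAFs: Cxcl1, Cxcl9, Cxcl14, Ccl2, Ccl7 and Ccl11. They were 6 of the 53 family members tested, or 11.3%, against 2.66% of all genes tested that were called higher. No member was called lower (limma adjusted p), against 1.96% of all genes, although 6 members were lower at an unadjusted p under 0.05 and limma-voom called 3 of them. At unadjusted p-values under 0.05 with more than a 1-unit log2 difference, 10 members were higher (18.9%, background 6.09%) and 6 were lower (11.3%, background 8.61%). The 3 libraries of a group all lay above the 3 of the other for 9 members higher in Col6a1+ CAFs (17%, background 7.91%) and 4 lower (7.55%, background 11.6%). The median log2 fold change was -0.16 over the 53 members and 0.31 over the 29 with a mean of at least 10, against -0.27 over all genes and -0.15 over the 13515 genes with such a mean.

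The calls depended on the libraries and on the model. Without Col6a1+ replicate 1, 4 members were called higher (Cxcl1, Ccl2, Ccl7 and Cxcl10). Without Col6a1+ replicate 2 these were 2 (Cxcl1 and Ccl2), and without Col6a1+ replicate 3 they were 3 (Cxcl1, Ccl2 and Cxcl9). When any of the 3 Col6a1− libraries was left out, 0 members were called higher. With the replicate number as a block, none of the 6 ligands passed (limma adjusted p between 0.0612 and 0.113), nor did any of the 26402 genes tested. With the same block among the 13515 genes averaging at least 10, all 6 passed, with adjusted p between 0.00242 and 0.0230. In that fit 981 of the 13515 genes were called higher. Each of the 6 was higher in Col6a1+ CAFs in all 3 replicate pairs. Their groups did not overlap, so any pairing would give this, and it adds nothing to the block result. The pan-fibroblast and mural marker sums given above were also higher in every Col6a1+ library, with 5 of 8 and 8 of 8 markers called, and their part in the levels of these ligands was not tested.

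Chemokine transcripts were summed over the 37 ligands of the naming rule. They made up 443, 380 and 461 of every 100000 normalized counts in Col6a1+ CAFs and 197, 169 and 151 in Col6a1− CAFs. The groups did not overlap. Without Cxcl1 the sums were 302, 257 and 198 per 100000 in Col6a1+ CAFs and 176, 130 and 113 in Col6a1− CAFs, and they still did not overlap. The naming rule leaves out the chemokines Pf4 and Ppbp, each high in a single Col6a1− library. Pf4 had 82, 6 and 8 normalized counts in Col6a1+ CAFs and 9, 5 and 2222 in Col6a1− CAFs. Ppbp had 15, 2 and 0 against 333, 1 and 9. Sums that include them were not taken. Receptors and atypical receptors together contributed 13.9, 10.8 and 11 per 100000 in Col6a1+ CAFs and 6.15, 12.5 and 9.75 in Col6a1− CAFs, with overlap. In bulk samples, fewer cells that express a gene and less of its RNA per cell cannot be told apart.

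**Figure D1:**
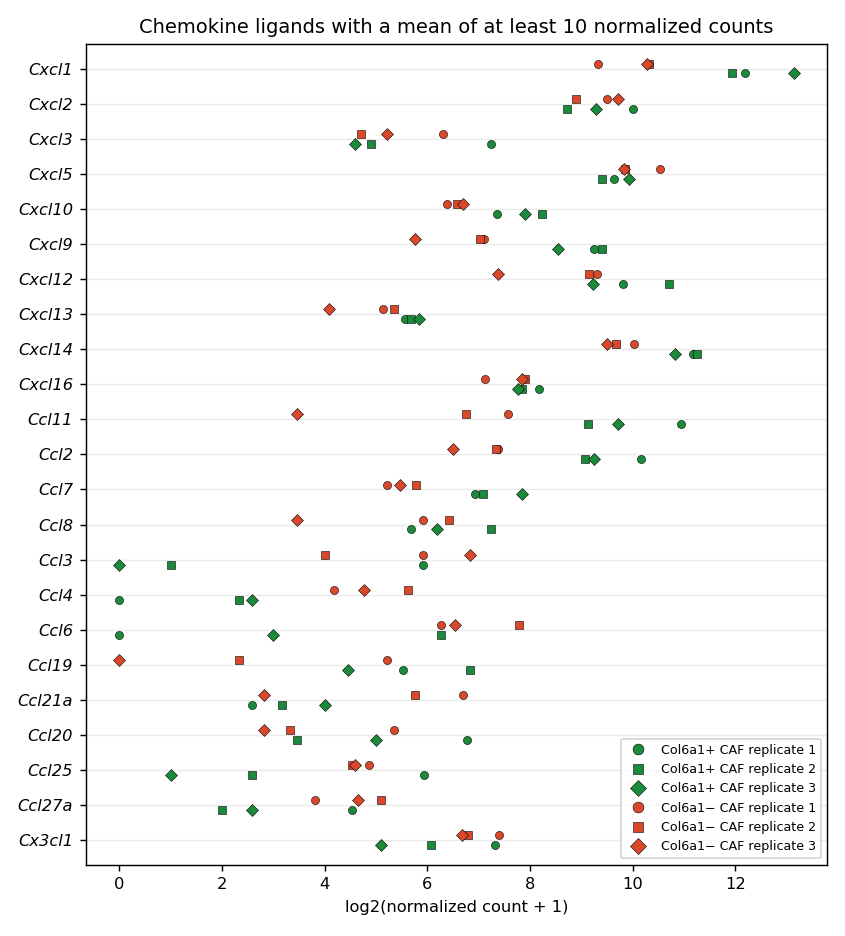
Levels of the 23 ligands averaging at least 10 normalized counts, as log2(normalized count + 1), with 1 point per library (green Col6a1+ CAFs, red Col6a1− CAFs, symbol by replicate number). The green points of Cxcl1, Cxcl9, Cxcl10, Cxcl13, Cxcl14, Ccl2, Ccl7 and Ccl11 all lie to the right of the red ones, and those of Ccl4 all lie to the left.

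The ELR-type CXC ligands Cxcl1, Cxcl2, Cxcl3 and Cxcl5 attract neutrophils through Cxcr2. Cxcl1 (mm10 chr5:90891241-90893115, plus strand) had 4688, 3905 and 9003 normalized counts in Col6a1+ CAFs and 642, 1273 and 1243 in Col6a1− CAFs. Every Col6a1+ library was above every Col6a1− library, with means of 5865 ± 2745 and 1053 ± 356 (SD, n = 3 each). The log2 fold change was 2.45 (standard error, SE, 0.39, 95% interval 1.59 to 3.30, limma adjusted p = 0.00641), or 0.0662 with the replicate block.

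The neighboring Cxcl2, which encodes MIP-2, had 1026, 418 and 624 normalized counts in Col6a1+ CAFs and 719, 478 and 839 in Col6a1− CAFs. The groups overlapped, and the log2 difference of -0.04 had a 95% interval of -0.86 to 0.79 (limma adjusted p = 0.976). Cxcl5, with 799, 679 and 977 against 1488, 915 and 910 normalized counts, also overlapped, with a log2 difference of -0.41 (95% interval -1.07 to 0.26). Cxcl3 was carried by 1 high library in each group, with 151, 29 and 23 against 78, 25 and 36 normalized counts (95% interval of the log2 difference -1.48 to 1.83). The median log2 fold change of the 5 ligands of this group, Cxcl15 included, was 0.18, and Cxcl15 never exceeded 3 counts.

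The ratio of Cxcl1 to Cxcl2 normalized counts, a comparison chosen after the values were seen, was 4.57, 9.34 and 14.4 in Col6a1+ CAFs and 0.893, 2.66 and 1.48 in Col6a1− CAFs. That of Cxcl1 to Cxcl5 was 5.87, 5.75 and 9.22 against 0.432, 1.39 and 1.37. Neither ratio overlapped between the groups. An exact two-sided permutation test gave p = 0.1 for each of these 2 ratios, adjusted 0.1, the smallest that 3 against 3 libraries allow. Cxcl1 and Cxcl2 share an NF-kB run in the promoters printed above, and lie 10.8 kb apart in the cluster on chromosome 5 (mm10 chr5:90759360-90905938) that also holds Cxcl5, Cxcl3 and Cxcl15.

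Cxcl9 and Cxcl10 are interferon-induced ligands of Cxcr3, which draws T cells and NK cells. Cxcl9 (mm10 chr5:92321347-92328079, minus strand) had 605, 679 and 370 normalized counts in Col6a1+ CAFs and 137, 130 and 53 in Col6a1− CAFs. The groups were fully apart, with a log2 fold change of 2.43 (SE 0.43, limma adjusted p = 0.0108, with the block 0.0612). Cxcl10 had 163, 301 and 237 against 82, 94 and 103 normalized counts and was apart as well, but its log2 difference of 1.28 (SE 0.36) was not called over all genes (limma adjusted p = 0.0744). It passed among genes averaging at least 10 (adjusted p = 0.0469). On the opposite strand Cxcl10 lies within Art3, which had 183, 82 and 130 counts against 1, 2 and 1, and whether the counting used strand was not stated. The partner receptor Cxcr3 was at 0 in every library.

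Among the homeostatic CXC ligands, Cxcl14 was the gene called. Its receptor is not settled, and it is made by many epithelia and fibroblasts. Cxcl14 (mm10 chr13:56288647-56296551, minus strand) had 2305, 2421 and 1814 normalized counts in Col6a1+ CAFs and 1039, 821 and 718 in Col6a1− CAFs, without overlap. Its log2 fold change of 1.35 (SE 0.27) had a limma adjusted p of 0.0204, with the block 0.0680.

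Cxcl12, the ligand of Cxcr4 and Ackr3 that retains and recruits many leukocytes, had 891, 1664 and 600 normalized counts against 632, 567 and 164. The lowest Col6a1+ library lay below the highest Col6a1− library, and the log2 difference of 1.30 (SE 0.53) was not called (limma adjusted p = 0.244), though it passed with the block among genes averaging at least 10 (0.0290). Without Col6a1− replicate 3 the Cxcl12 difference was 0.68 (limma adjusted p = 0.606). Cxcl13, which attracts B cells through Cxcr5, had 46, 50 and 56 against 34, 40 and 16 without overlap, yet the difference of 0.83 (95% interval -0.36 to 2.02) was not called. Cxcl16, the membrane-bound ligand of Cxcr6, had 289, 230 and 217 against 138, 239 and 229, with a log2 difference of 0.31 (95% interval -0.44 to 1.06). Cxcl17 never exceeded 3 counts.

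The CC ligands of monocytes and eosinophils held 3 of the 6 called genes. Ccl2, or MCP-1, the main ligand of Ccr2, had 1139, 537 and 602 normalized counts in Col6a1+ CAFs and 166, 160 and 89 in Col6a1− CAFs, and the groups did not overlap. The log2 fold change was 2.42 (SE 0.39, limma adjusted p = 0.00656, with the block 0.0630). Ccl7, a further ligand of Ccr2, had 121, 134 and 228 against 36, 54 and 43, a log2 fold change of 1.80 (SE 0.42, limma adjusted p = 0.0362, with the block 0.110).

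Ccl11, eotaxin, which acts on eosinophils through Ccr3, had 1962, 561 and 835 normalized counts in Col6a1+ CAFs and 188, 106 and 10 in Col6a1− CAFs. All 3 Col6a1+ libraries were above the others, but the Col6a1− libraries ranged widely. The log2 fold change was 4.01 (SE 0.89, limma adjusted p = 0.0302, with the block 0.113), 2.78 without Col6a1− replicate 3 and 4.83 without Col6a1− replicate 1. Ccl8 had 50, 151 and 72 against 59, 85 and 10 and was not called (log2 difference 1.11, SE 0.76, or 0.20 without Col6a1− replicate 3). Ccl12 reached at most 4 counts and Ccl24 at most 1. Ccl2, Ccl7 and Ccl11 lie side by side on chromosome 11 (mm10 chr11:82035571-82305690) with Ccl12, Ccl8 and Ccl1. Over the 6 tested ligands of this group the median log2 fold change was 1.45.

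The myeloid CC ligands Ccl3, Ccl4, Ccl5, Ccl6 and Ccl9 lie 1.22 Mb further along chromosome 11 (mm10 chr11:83525778-83664683). Ccl4, a chemokine made mainly by leukocytes, had 0, 4 and 5 normalized counts in Col6a1+ CAFs and 17, 48 and 26 in Col6a1− CAFs. The groups were apart but the log2 difference of -3.21 (SE 1.01) was not called (limma adjusted p = 0.116, with limma-voom 0.0483). Ccl6 had 0, 76 and 7 against 76, 219 and 92, with Col6a1+ replicate 2 as high as the lowest Col6a1− library. Its difference of -3.77 (SE 1.27) had a limma adjusted p of 0.143, or 0.0285 with the block among genes averaging at least 10. The difference of Ccl6 was -5.36 without Col6a1+ replicate 2 (adjusted p = 0.0487 by limma) and -2.23 without Col6a1+ replicate 1 (0.298). Ccl3 had 59, 1 and 0 against 59, 15 and 112 and was -3.27 (SE 1.43, limma adjusted p = 0.291). Its difference became -5.08 when Col6a1+ replicate 1 was left out (limma adjusted p = 0.0499) and -2.12 when Col6a1+ replicate 3 was (0.595). Over the 5 ligands the median log2 difference was -3.21, and Ccl5 and Ccl9 had at most 15 and 4 counts.

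Between the groups, the immune and epithelial marker sums differed in the same direction as these ligands. The sum of the 5 myeloid CC ligands was 61, 92 and 14 in Col6a1+ CAFs and 153, 297 and 237 in Col6a1− CAFs, while the 22 immune markers summed to between 273 and 544 and between 930 and 2075. Within Col6a1+ CAFs, replicate 3 had the lowest ligand sum but the highest immune and epithelial sums. Within Col6a1− CAFs, replicate 2 had the highest ligand, immune and epithelial sums. The neutrophil genes S100a8 (23, 17 and 29 against 211, 387 and 167 normalized counts) and S100a9 were the immune markers called lower. Of 22 immune marker rows tested, 18 were lower and 4 higher in Col6a1+ CAFs. The part of immune or epithelial cells in the levels of Ccl3, Ccl4 and Ccl6 was not tested.

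**Figure D2:**
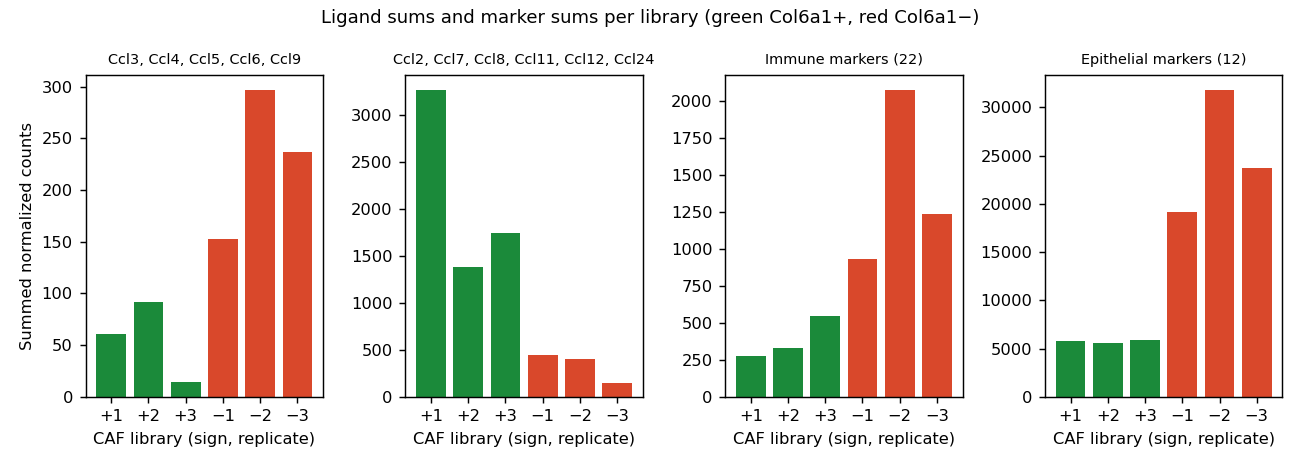
Summed normalized counts per library of the myeloid CC ligands, the monocyte and eosinophil CC ligands, the 22 immune markers and the 12 epithelial markers (bars, 1 per library, green Col6a1+ and red Col6a1− CAFs, each panel with its own axis from 0). The myeloid ligands and both marker lists are higher in all 3 Col6a1− libraries, and the monocyte and eosinophil ligands in all 3 Col6a1+ libraries.

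Among the lymphoid CC ligands, which guide lymphocytes and dendritic cells through Ccr7 or Ccr4, none was called by limma, and limma-voom called Ccl21b. Ccl19 had 45, 112 and 21 normalized counts in Col6a1+ CAFs and 36, 4 and 0 in Col6a1− CAFs, with overlap (log2 difference 3.09, SE 1.23, limma adjusted p = 0.233). Ccl21a, made by lymphatic vessels and lymphoid stroma, had 5, 8 and 15 against 102, 53 and 6 (log2 difference -1.83, SE 1.02). With 1 library left out, the difference ranged from 1.84 to 4.44 for Ccl19 and from -2.97 to -1.03 for Ccl21a. Ccl21b was at 0 in all 3 Col6a1+ libraries and had 7, 3 and 4 counts in Col6a1− CAFs (limma adjusted p = 0.0887). The mean of the latter was 1.56 times a floor of 3 counts per library, with the lowest library at that floor. Ccl21b is a near-identical copy of Ccl21a, and reads may have been split between them. Ccl17 and Ccl22 had at most 1 count.

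Among the epithelial CC ligands, none was called by limma, and limma-voom called Ccl28. Ccl20, the Ccr6 ligand, had 108, 10 and 31 normalized counts against 40, 9 and 6, and Col6a1+ replicate 1 set its mean (log2 difference 1.25, SE 0.98). Ccl25, which draws lymphocytes to the gut through Ccr9, had 60, 5 and 1 against 28, 22 and 23 (log2 difference -1.48, SE 1.15). Ccl27a had 22, 3 and 5 against 13, 33 and 24 (log2 difference -1.48, SE 0.91), with overlap as for the other two. With 1 library left out, the difference ranged from 0.40 to 2.06 for Ccl20, from -2.86 to -0.40 for Ccl25 and from -2.22 to -0.96 for Ccl27a. Ccl28, the mucosal Ccr10 ligand, had 0, 1 and 0 against 7, 21 and 5 counts, and its summed count was lower by a ratio of 33 with a 95% counting interval of 5.52 to 1342 (limma adjusted p = 0.110). Its libraries did not overlap, and Ccl27b had at most 1 count. The 12 epithelial markers were also higher in Col6a1− CAFs, and their part in the levels of Ccl28 and Ccl27a was not tested.

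Cx3cl1, fractalkine, the membrane-bound ligand of Cx3cr1, had 159, 66 and 33 normalized counts in Col6a1+ CAFs and 167, 109 and 101 in Col6a1− CAFs. The Col6a1+ library was the lower in all 3 replicate pairs, Col6a1+ replicate 1 lay within the range of the Col6a1− libraries, and the log2 difference of -0.79 (95% interval -2.01 to 0.43) was not called. Xcl1, lymphotactin, was at 0 in the Col6a1+ libraries and had 1, 5 and 5 counts in Col6a1− CAFs (limma adjusted p = 0.152). The mean of the latter was 1.22 times the floor of 3 counts per library, with the lowest library under that floor.

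**Figure D3:**
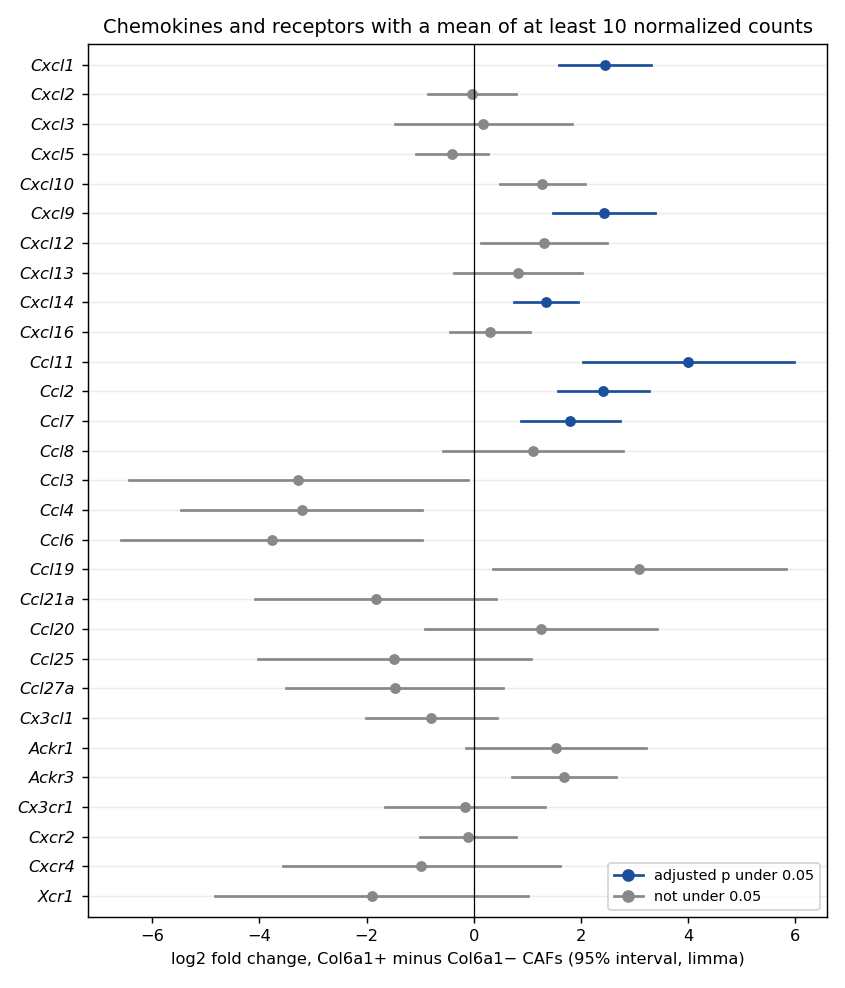
Log2 fold change (Col6a1+ minus Col6a1− CAFs, points) and 95% limma interval (lines) of the 29 chemokines and receptors averaging at least 10 normalized counts, in blue where the adjusted p was under 0.05. The 6 blue genes are Cxcl1, Cxcl9, Cxcl14, Ccl2, Ccl7 and Ccl11, and the interval of Cxcl2 spans -0.86 to 0.79.

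**Figure D4:**
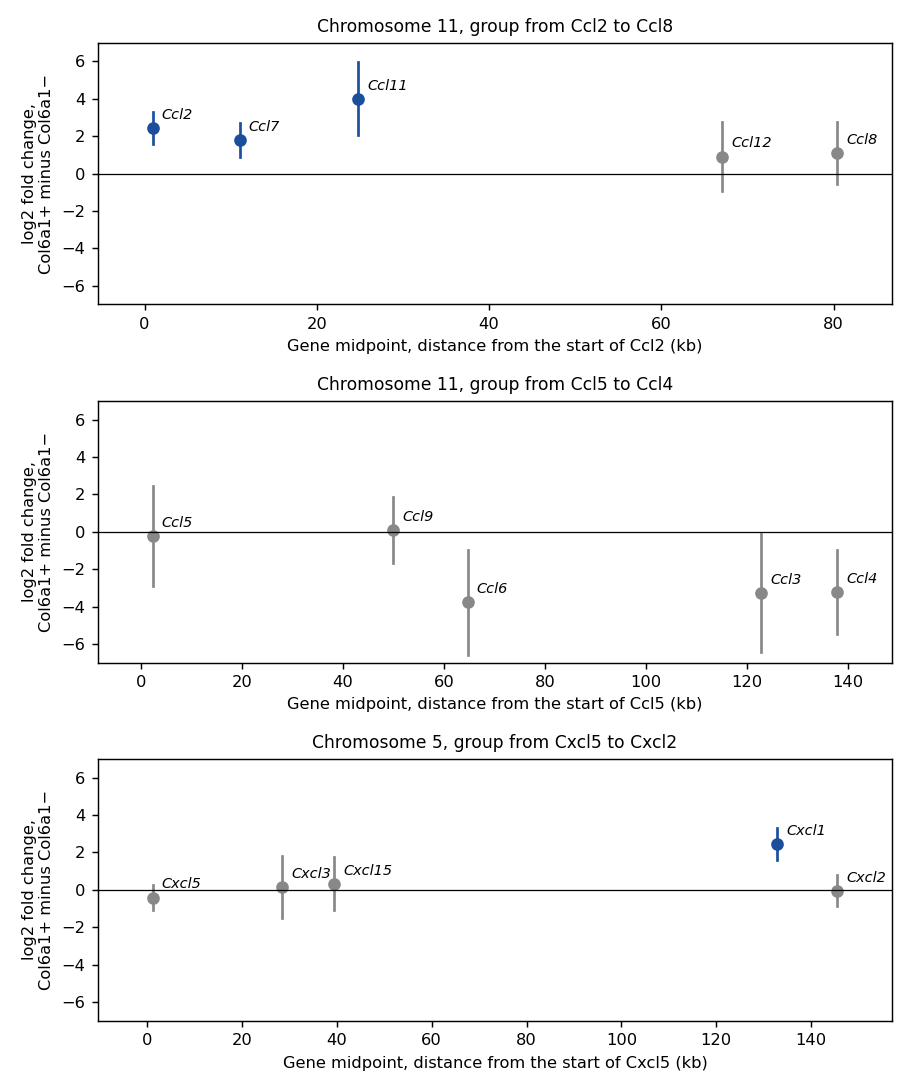
Log2 fold changes (points) with 95% limma intervals (lines) by distance in kb along the 3 largest ligand groups, with called genes in blue and the untested Ccl1 not drawn. Ccl2, Ccl7 and Ccl11 lie at 2.42, 1.80 and 4.01 in the upper panel, Ccl6, Ccl3 and Ccl4 at -3.77, -3.27 and -3.21 in the middle panel, and Cxcl1 at 2.45 beside Cxcl2 at -0.04 in the lower panel.

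None of the receptors was called, and none had an unadjusted limma p under 0.05. Of the 18, 4 were at 0 in every library (Ccr3, Ccr6, Cxcr1 and Cxcr3), and 4 reached a mean of 10. Cxcr2, the receptor of Cxcl1, Cxcl2 and Cxcl5 on neutrophils, had 81, 74 and 83 normalized counts in Col6a1+ CAFs and 61, 118 and 86 in Col6a1− CAFs, with overlap and a 95% interval of the log2 difference of -1.0 to 0.79. Cx3cr1 had 34, 25 and 59 against 16, 87 and 50, but its annotated span covers other genes, such as Csrnp1, so its counts are uncertain. Cxcr4, the Cxcl12 receptor, had 2, 8 and 27 against 3, 39 and 35, and Xcr1, a receptor of dendritic cells, 0, 10 and 9 against 3, 20 and 68. Both overlapped between the groups. Ccr2, the receptor of Ccl2 and Ccl7, had 0, 0 and 1 against 10, 2 and 0 counts. The median log2 difference of the 14 tested receptors was -0.54.

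The atypical receptors were led by Ackr3, which takes up Cxcl12. It had 258, 181 and 129 normalized counts in Col6a1+ CAFs and 59, 82 and 36 in Col6a1− CAFs, and the groups did not overlap. The log2 difference of 1.69 (SE 0.44) missed the threshold over all genes (limma adjusted p = 0.0588) and passed among genes averaging at least 10 (adjusted p = 0.0431). Ackr1, which binds many inflammatory chemokines on venules, had 68, 18 and 48 against 15, 23 and 6 with overlap (log2 difference 1.53, SE 0.76), and it overlaps Cadm3 on the same strand. Ackr2 and Ackr4 had at most 11 and 13 counts.

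**Figure D5:**
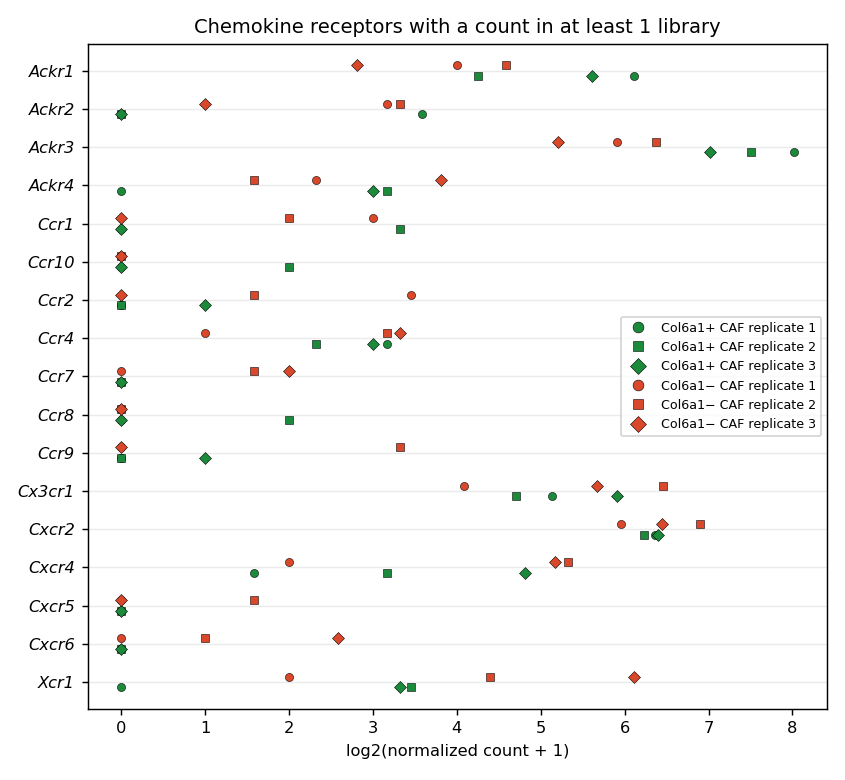
Levels of 4 atypical receptors and 13 of the 14 receptors with a count in at least 1 library, as log2(normalized count + 1), with 1 point per library (green Col6a1+ CAFs, red Col6a1− CAFs, symbol by replicate number); 1 receptor is not drawn. Ackr3 is the gene whose green points all lie to the right of the red ones, while Cxcr2, Cx3cr1, Cxcr4 and Xcr1 are mixed.

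Genes that act around the chemokines were counted from lists of the pathway, with medians to be read against the -0.27 of all genes. Of 25 genes that transmit chemokine receptor signals, 3 were called higher (12%, against 2.66% of all genes) and 2 lower (8%, against 1.96%) in Col6a1+ CAFs, with a median difference of 0.04. Rgs16, which limits G protein signaling, had 2975, 1426 and 1648 normalized counts against 204, 193 and 228 (log2 fold change 3.20, limma adjusted p = 0.000930). The other two were the receptor kinase Grk5 (log2 fold change 2.05) and the G protein subunit Gnai2 (1.36), while the hematopoietic exchange factor Vav1 (-4.13) and the kinase Ptk2b (-2.64) fell. Vav1 had 0, 3 and 1 counts against 29, 27 and 50, in the direction of the immune and epithelial marker sums.

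Of 22 genes of the IL-1, TNF, Toll-like receptor and NF-kB pathways that induce chemokines, 3 were called higher (13.6%, against 2.66% of all genes) and 1 lower (4.55%, against 1.96%), with a median of 0.45. Among those higher were the receptors Il1r1 (191, 118 and 84 against 42, 9 and 9 normalized counts, log2 fold change 2.94) and Tnfrsf1a (532, 739 and 848 against 245, 306 and 186, log2 fold change 1.52). Il1b, the cytokine itself, had 4, 12 and 20 counts against 214, 195 and 196 and was lower by a log2 difference of -4.19 (limma adjusted p = 0.00336). The immune and epithelial marker sums given above differed in the same direction. Of 22 immune marker rows tested, 18 were lower and 4 higher, and S100a8 and S100a9 were those called (-3.35 and -4.06). Of the 12 epithelial markers, 9 were called lower. The part of immune or epithelial cells in the level of Il1b was not tested. Of 10 proteases that trim or shed chemokines (median 1.29), 1 was called higher (10%, against 2.66% of all genes) and 1 lower (10%, against 1.96%). The gelatinase Mmp9 was called higher (log2 fold change 2.57) and Adam10, which sheds Cx3cl1 and Cxcl16, was called lower (-1.27). None of 11 related genes outside the naming rule was called (limma adjusted p, median -0.24). At unadjusted p-values under 0.05 with more than a 1-unit log2 difference, 2 of the 11 were higher and 2 lower. Over all genes 6.09% were higher and 8.61% lower by that rule. With the replicate block none of these pathway genes passed, and none of all 26402 genes did. The limma adjusted p was then 0.0612 for Rgs16, Mmp9 and Ptk2b and 0.0672 for Il1b.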

How the data were processed

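The 3′ mRNA sequencing (QuantSeq, Ion Proton) covered 3 Col6a1+ and 3 Col6a1− CAF samples, grouped by their labels. The authors mapped reads to mm10 with TopHat2 and the remainder with Bowtie2, counted them per gene and normalized them with DESeq, and the submitters' processing notes name these tools. Their deposited table holds log2 values, the log2 of the normalized count plus 1, for 49548 genes, and all of them gave whole normalized counts (within 1e-06). Its columns of p-values, false discovery rates, fold changes and group means hold the authors' own comparison and were not used, nor were 6 further per-sample columns. Strand use in counting is not given in the sources used here.

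Linear models were fitted to the log2 values with limma 3.58.1 (R 4.3.3, moderated variances following the mean) for the 26402 genes whose normalized counts summed to 1 or more, with Benjamini-Hochberg adjustment. Every family member could be named, and values per library are given for those with a mean of at least 10 or a call. Those of Ccl21b, Ccl28, Xcl1 and Ccr2, under that mean, were added after they were seen. Values of some genes are not reported here. Pathway genes are named where called, at most 4 per list by the smallest adjusted p, except that Vav1 was named beyond the 4 of its list. Other genes named, Art3, Csrnp1, Cadm3, Pf4, Ppbp and single markers, were chosen after their values were seen. The members and lists were chosen with earlier results of these data known. Deviations from the group means over 13515 genes correlated at 0.245, 0.125 and 0.144 between libraries with the same replicate number and at -0.245 to 0.15 between others, and the numbers were read as pairs. Sums of normalized counts, 3039152 to 3425249 per library, carry the authors' scaling. A 0 allows up to 3 counts, and this floor and counting intervals cover counting error only. Alternatives were library size alone, a mean of at least 10, no filter, a pseudocount of 0.1, limma-voom, the replicate block with or without that mean, leaving out each library and unadjusted p-values. Leaving out each library with all genes kept was added after seeing the data. Promoters are from RefSeq (GRCm38.p6), which had entries for 45 of 59 members and none for Ccl2, Ccl7, Ccl11 and Cxcl5. Tables and plots were made with Python 3.11.15, NumPy 2.4.6, pandas 2.3.3 and Matplotlib 3.10.9.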

Additional observations from a re-analysis of the deposited data

How the results depend on the processing

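Of the 59 chemokine family genes, 6 were called higher and 0 lower in Col6a1+ CAFs. The number called higher was 0 without a filter and 0 under the replicate block, which reads the libraries as pairs, and 10 at unadjusted p-values under 0.05 with more than a 1-unit log2 difference. Among genes averaging at least 10 it was 8, and 9 with the block. Leaving out 1 library at a time gave 0 to 4 called higher and 0 to 1 lower, and 0 higher and 0 to 1 lower when every gene was kept. Over all genes, 703 were called higher in the main fit and 21 without a filter. Leaving out 1 library gave 11 to 453 of all genes, or 0 to 98 with every gene kept. The number of family members called lower was 3 with limma-voom, 1 (Ccl6) with the block over genes with a mean of at least 10, and 6 at unadjusted p-values. The block lost the call of each of the 6 ligands and, over all genes, made none. Over 377 values of 29 genes under the alternatives, 317 kept their direction and their side of the threshold, 42 lost the call, 10 gained it and 8 turned sign. Most of these genes had no call to lose, and all 42 losses fell on the 6 called ligands. Those kept the call in 8 of 36 fits with 1 library left out and in 28 of 42 other fits. With 1 library left out, the log2 difference ranged from -0.82 to 0.37 for Cx3cr1, from -0.37 to 0.28 for Cxcl2, from -0.66 to 0.67 for Cxcl3 and from -0.34 to 0.13 for Cxcr2. These 4 genes hold the 8 turned signs, and none of them was called. The pseudocount of 0.1 lost Ccl7 and Ccl11. A fit without a library has fewer samples, and the cause of the other changes was not tested. Low counts limit the receptors, of which 14 of 18 had a mean under 10.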
